A study of Mus musculus with 6 samples.

Results

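The Wnt pathway was examined through 48 genes for its ligands, Frizzled receptors, co-receptors, R-spondins, secreted antagonists and a few intracellular and nuclear components. A probe set was taken when its gene symbol in the platform annotation was exactly one of these names, which gave 100 probe sets out of 34945 with a single symbol, and 48 of 18193 genes. All 48 genes had at least 1 probe set. The samples were ventral midbrain cells of mouse embryos at day 12.5, sorted by flow cytometry and measured on 1 microarray each, with 3 biological replicates per group according to the design text. The group called positive held GFP-positive cells of Ngn2-GFP reporter mice on a CD1/129 background, described in the design text as containing nearly all midbrain dopaminergic progenitors. The group called negative held GFP-negative cells of Lmx1a-GFP reporter mice on a C57BL/6 background, used as a reference without dopaminergic progenitors. Reporter line, strain and gate all differ between the groups, so their parts in a difference cannot be told apart. In sorted bulk samples, a change in the share of cells that express a gene and a change in RNA per cell also cannot be told apart.

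Wnt proteins are secreted lipid-modified ligands that bind Frizzled receptors, together with Lrp5 or Lrp6 in the beta-catenin branch or with Ror and Ryk receptors in other branches. In the beta-catenin branch the signal stabilises beta-catenin, which acts in the nucleus through Lef1 and the Tcf proteins. R-spondins bind Lgr receptors and keep Frizzled receptors on the cell surface, while Sfrp, Wif and Dkk proteins act outside the cell to limit signalling. In the ventral midbrain, Wnt1 is known for its role with Lmx1a in specifying dopaminergic progenitors, and Wnt5a is known for promoting dopaminergic neuron development.

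Signals are the authors' MAS5 values on a linear scale, with every array scaled to the same trimmed mean of 100. Median signal lay between 18.1 and 25.5 over the 6 arrays. A probe set was tested if its signal exceeded the 40th percentile of its array, between 10.2 and 15.8, on at least 3 arrays, and a group is called dim for a probe set that exceeded that level on none of the group's arrays. Hybridization spike-ins averaged 2293 and 2352 (geometric means) on positive replicates 1 and 2 and 4254 to 6560 on the other 4 arrays, a split called the spike-in batch, whose lower side held positive arrays alone. Lmx1a was higher in positive cells at signals of 146, 170 and 78.7 against 3.74, 9.75 and 1.81, a difference that the Lmx1a gate of the negative cells selects for (adjusted p = 0.00167, limma with Benjamini-Hochberg adjustment, as for all adjusted p below). Th, the rate-limiting enzyme of dopamine synthesis, was also higher (log2 fold change 4.89, SE 0.69, adjusted p = 0.00414), and Neurog2 differed by 0.75 (SE 0.21, adjusted p = 0.155). Fold changes below are log2 values, positive minus negative, with the SE of the fit and n = 3 arrays per group.

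Positive cells had more messenger RNA for the R-spondin Rspo2 and less for the nuclear effector Tcf7l2 and the secreted antagonist Sfrp2 than negative cells. These 3 of the 30 tested Wnt genes passed the threshold, 1 higher and 2 lower, where 1.06% of all 12044 tested genes passed (0.423% higher and 0.639% lower). The other 18 genes did not reach the filter. At an unadjusted p under 0.05 there were 11 of the 30, 5 higher and 6 lower, against 10.8% of all tested genes (5.68% higher and 5.08% lower). Values of the groups did not overlap for 12 of the 30, with 7 higher and 5 lower in positive cells, against 15.5% of all tested genes (8.21% higher and 7.25% lower). The median fold change over the 30 genes was -0.16, with 13 at positive and 17 at negative values, and that of all tested genes was 0.03. Only the genes that cleared the filter enter these counts, and 5 of the 30 cleared it on exactly 3 arrays. For 3 of these, Wnt1, Wnt3a and Rspo2, the 3 arrays were the positive ones, so a higher value in positive cells was a condition of their being tested. Of the 30 genes, 27 had the same sign in the comparison within the higher spike-in batch, which sets positive replicate 3 against the 3 negative arrays, and 3 had the opposite sign. That comparison reuses arrays of the main fit, and the 12 genes without overlap could not change sign in it. The count is therefore no independent check.

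**Figure D1:**
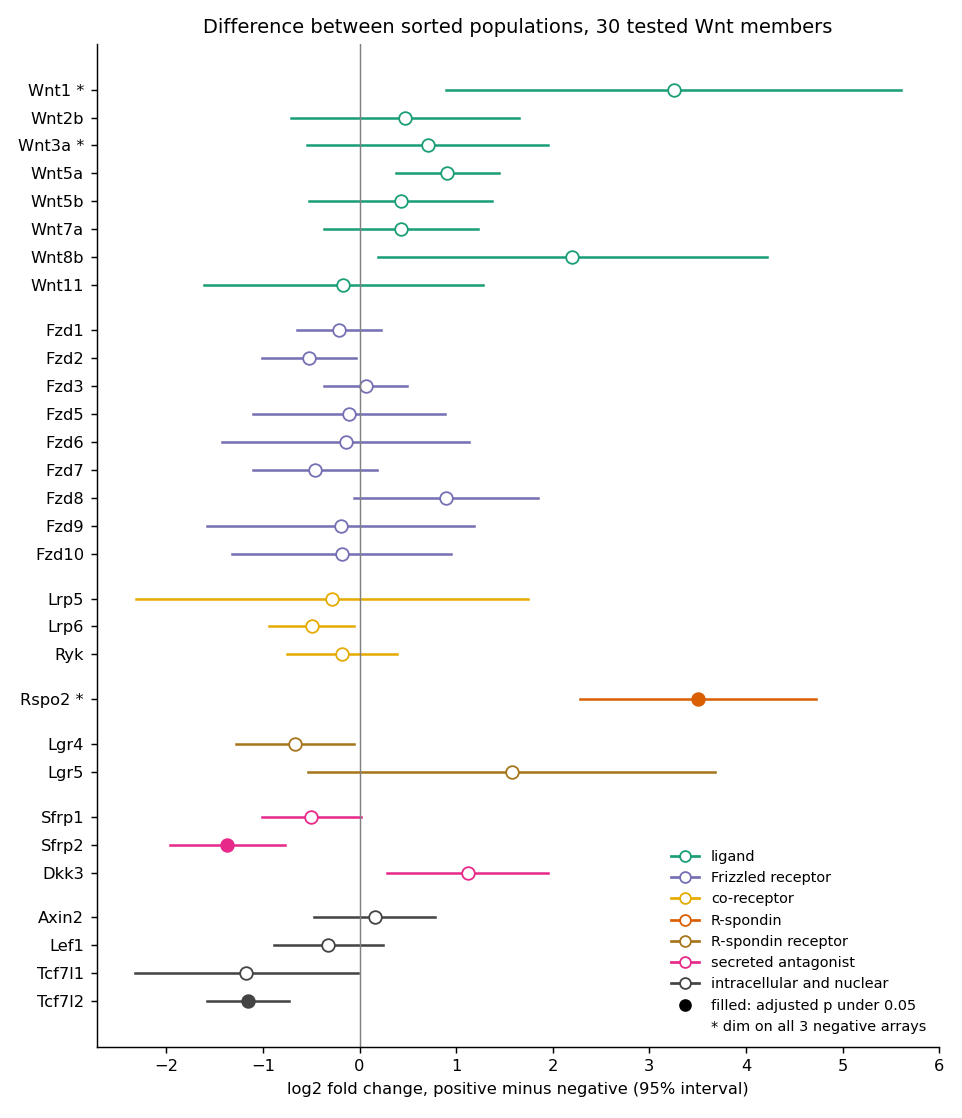
Log2 fold changes (x axis, positive minus negative) of the 30 tested Wnt genes, grouped by role, with points for the limma estimate and bars for its 95% interval. Filled points mark the 3 genes past the threshold (Rspo2, Sfrp2 and Tcf7l2), and asterisks mark genes dim on all 3 negative arrays, whose fitted values are no bounds.

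The ligands were taken first. None of the 8 tested ligands passed the threshold in limma, and 3 had an unadjusted p under 0.05 (37.5%, against 10.8% of all tested genes). Their fold changes were positive for 7 and negative for 1, and their median was 0.59 (0.45 when the bound replaces the fitted value of dim genes). The sign of Wnt1 and Wnt3a follows from how they cleared the filter. Wnt5a, which acts mainly through receptors of the branches without beta-catenin, had signals of 447, 384 and 477 on the positive arrays and 326, 175 and 217 on the negative arrays. All 3 positive values lay above all 3 negative values. The difference was 0.91 (SE 0.25, 95% interval 0.37 to 1.44, adjusted p = 0.149). Wnt5a had 4 tested probe sets, all with positive differences, between 0.50 and 1.16, and the groups did not overlap for 2 of them. Over 18 alternative settings the difference ranged from 0.71 to 1.16 and the adjusted p from 0.0546 to 0.885, so it passed in none of them. Within the higher spike-in batch the difference was 1.04.

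Wnt1, the ligand of the midbrain-hindbrain boundary and of early dopaminergic progenitors, was measured close to the filter level. Its probe set gave 18.8, 13.5 and 12.3 on the positive arrays and 1.21, 1.18 and 2.52 on the negative arrays, where it was dim. The groups did not overlap, and the positive values lay just above the 40th percentiles of their arrays, which were 14.6, 12.7 and 11.6. The fitted difference of 3.25 (SE 1.09, adjusted p = 0.277) therefore sets no size, and the bound was at least 1.13-fold. Wnt1 passed in 1 of 17 alternative settings, the fit without a mean-variance trend (adjusted p = 0.0145), in which Rspo2 passed and Sfrp2 and Tcf7l2 did not. With log2 of the value plus 32 in place of a floor the difference shrank to 0.48.

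Wnt8b, a ligand known from dorsal and caudal forebrain, gave 46.7, 16.3 and 28.7 on the positive arrays and 13.4, 1.18 and 14.1 on the negative arrays. The groups were separated by the small gap between 16.3 and 14.1, and 1 negative array exceeded the filter level. The difference was 2.20 (SE 0.93, 95% interval 0.19 to 4.21, adjusted p = 0.408), and it was 1.02 without negative replicate 2 and 0.58 with log2 of the value plus 32. Wnt3a, a ligand of the beta-catenin branch, gave 21.0, 16.9 and 20.02 against 15.5, 12.0 and 8.76. These groups also did not overlap, and Wnt3a was dim on all negative arrays. Its difference was 0.71 (SE 0.58, 95% interval -0.54 to 1.95, adjusted p = 0.677), an interval that includes no change. The bound of at least 1.48-fold carries no sampling error, so it does not show an increase.

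For Wnt2b, Wnt5b, Wnt7a and Wnt11 the groups overlapped. Their differences were 0.47 (95% interval -0.71 to 1.65) for Wnt2b, 0.43 (-0.52 to 1.37) for Wnt5b, 0.43 (-0.36 to 1.23) for Wnt7a and -0.17 (-1.61 to 1.28) for Wnt11. These intervals include changes of more than 2-fold in at least one direction, so the data do not show that the ligands were equal. A further probe set of Wnt5b gave 24.7, 24.8 and 18.6 on the positive arrays and 1.84, 3.55 and 9.61 on the negative arrays, without overlap. It was dim on all negative arrays and did not pass in the fit of every probe set on its own (adjusted p = 0.334). Both Wnt5b probe sets were positive in direction. The further one cleared the filter on the positive arrays alone, so its direction was a condition of its being tested.

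Ligands under the filter were Wnt2, Wnt3, Wnt4, Wnt6, Wnt7b, Wnt9a and Wnt10a. Wnt7b, a ligand active in forebrain vasculature and neural progenitors, had 2 probe sets whose signals lay between 0.651 and 15.4, and no more than 1 array exceeded the filter level. Wnt2 and Wnt10a reached it on no array, with highest signals of 1.14 and 3.29. Wnt3 and Wnt9a reached it on 2 arrays, with highest signals of 23.3 and 17.6. These ligands were not tested because fewer than 3 arrays exceeded the filter level, which is not evidence of absence or of equal levels.

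**Figure D2:**
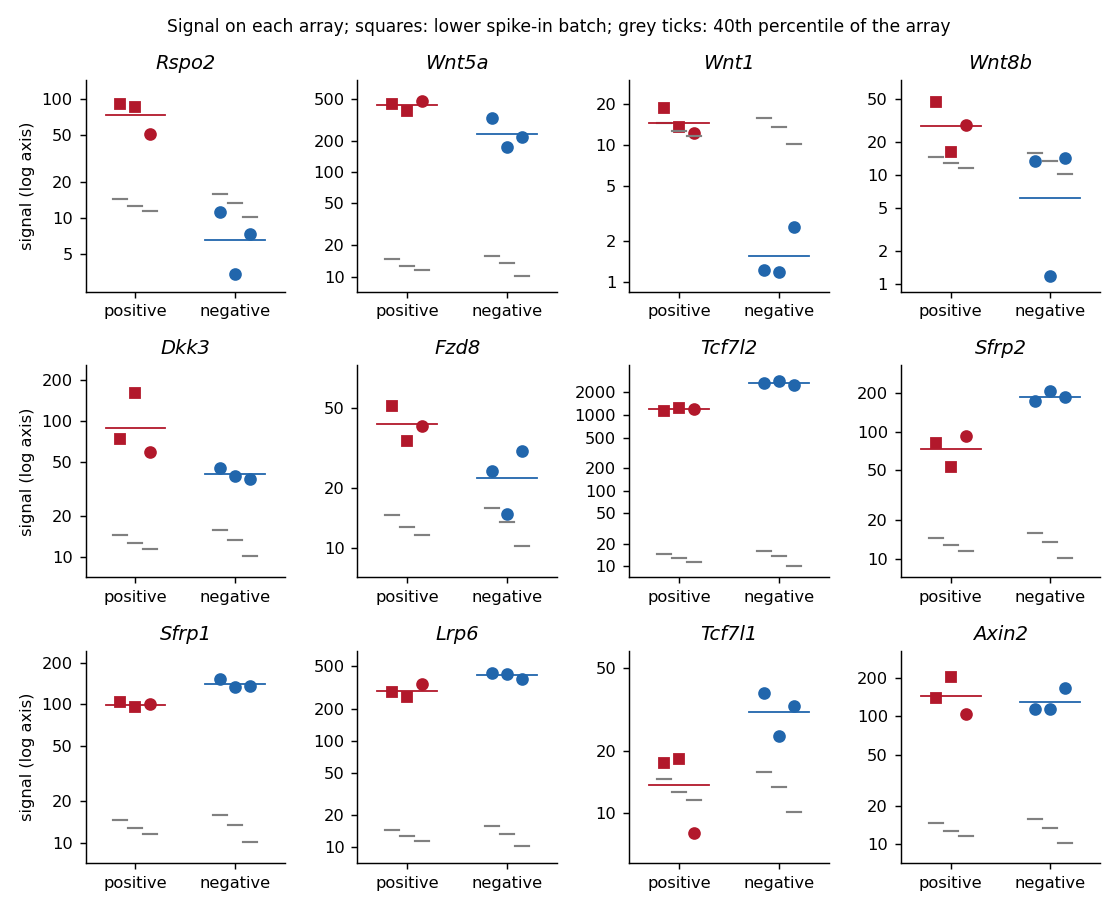
Signal on each array (y axis, log scale) for 12 Wnt genes in positive (red) and negative (blue) cells, with horizontal lines for the geometric mean of each group. Squares are the 2 arrays of the lower spike-in batch and grey ticks the 40th percentile of each array: the negative Wnt1 values all lie under the ticks, while Tcf7l2 values lie between 1146 and 2839.

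Frizzled receptors showed no change past the threshold. Of the 9 tested, 7 had negative and 2 positive fold changes, with a median of -0.19. At an unadjusted p under 0.05 there was 1 (11.1%), near the 10.8% of all tested genes. That receptor was Fzd2, with 383, 479 and 459 on the positive arrays and 474, 719 and 740 on the negative arrays. The groups overlapped through the lowest negative value. The difference was -0.53 (SE 0.22, 95% interval -1.01 to -0.04, adjusted p = 0.417). Fzd8, another Frizzled receptor, had the highest positive fold change of the 9. It gave 51.0, 34.1 and 40.6 against 24.4, 14.8 and 30.4, with no overlap and a difference of 0.90 (SE 0.44, 95% interval -0.05 to 1.84, adjusted p = 0.489). A second Fzd8 probe set, under the filter, had the opposite sign at -0.53, also without overlap.

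Fzd3, a receptor known from axon guidance and planar polarity, had 6 tested probe sets, the most of any of the 48 genes. The representing one gave 1190, 1112 and 1110 on the positive arrays and 1136, 923 and 1224 on the negative arrays. Its difference of 0.07 had a 95% interval of -0.37 to 0.50, and the 6 probe sets lay between -0.34 and 0.31. Fzd1 differed by -0.21 (95% interval -0.65 to 0.22) for its representing probe set, and a further probe set gave -0.87 (SE 0.46). Fzd7 was at -0.46 (-1.10 to 0.18). The differences of Fzd5, Fzd6, Fzd9 and Fzd10 lay between -0.20 and -0.11, with 95% intervals that reached from -1.58 to 1.19 at the widest (Fzd9). A further Fzd10 probe set had the opposite sign at 1.31, from signals of 14.9, 9.78 and 25.2 against 23.7, 10.1 and 0.259, where 1 negative array was low. Fzd4 stayed under the filter on all 3 of its probe sets, with signals up to 17.8.

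Among the co-receptors, Lrp6, the partner of Frizzled in the beta-catenin branch, gave 290, 258 and 341 on the positive arrays and 437, 428 and 380 on the negative arrays. Every positive value lay below every negative value. The difference was -0.49 (SE 0.20, 95% interval -0.93 to -0.05, adjusted p = 0.395), and -0.28 within the higher spike-in batch. A second Lrp6 probe set had the opposite sign at 2.26, from signals of 43.1, 15.1 and 27.4 against 28.4, 2.02 and 2.81, and the mean of both probe sets gave 0.89 (adjusted p = 0.531). Lrp5 differed by -0.29 (95% interval -2.32 to 1.74) at signals of 2.35 to 23.3.

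Ryk, a receptor for Wnt5a in axon guidance, differed by -0.18 (95% interval -0.75 to 0.39) for its representing probe set, with 103, 131 and 86.3 against 126, 133 and 102. Its other 2 probe sets had positive differences of 0.11 and 0.88, the last from 63.3, 69.4 and 65.6 against 57.5, 36.1 and 22.2 without overlap. Ror1 and Ror2, tyrosine kinase receptors for Wnt5a, reached the filter level on no array, with signals up to 10.2 and 10.1.

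**Figure D3:**
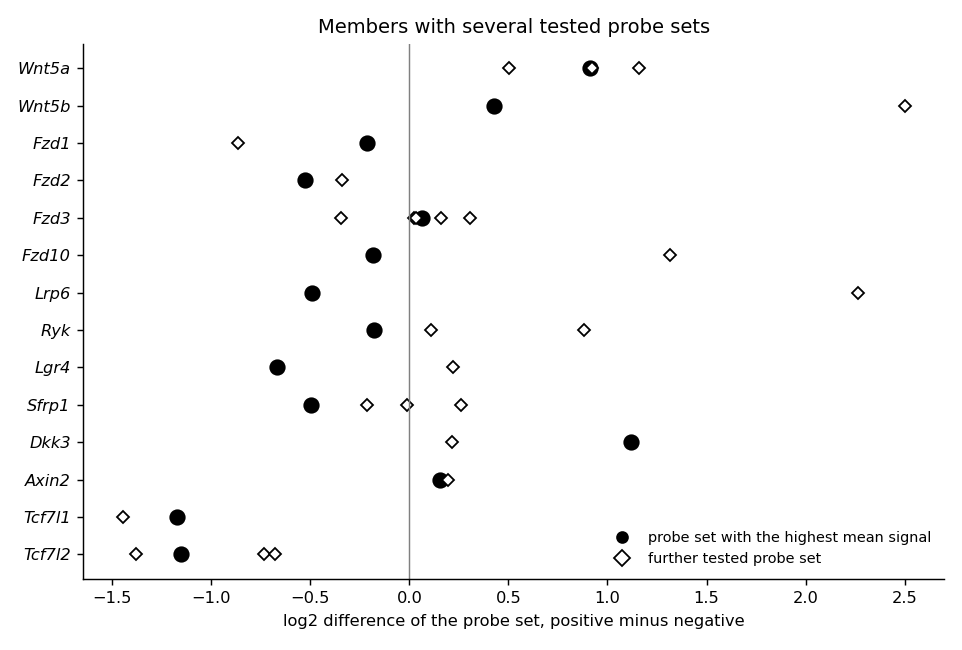
Log2 difference between the groups (x axis, positive minus negative) for each tested probe set of the 14 Wnt genes that had more than 1, with filled circles for the probe set with the highest mean signal and open diamonds for the further ones. All probe sets of Wnt5a lie above 0 and all of Tcf7l2 and Tcf7l1 below 0, while those of Lrp6, Ryk, Lgr4, Fzd10, Fzd3 and Sfrp1 lie on both sides.

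Over all roles, 14 genes had more than 1 tested probe set. Of the 25 further probe sets, 18 had the sign of the representing one and 7 the opposite sign, and 4 lay more than 1 log2 unit from it. In the fit of every probe set on its own, 3 of the 55 tested Wnt probe sets passed (0.647% of all tested probe sets did), 1 each for Rspo2, Sfrp2 and Tcf7l2.

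R-spondins were represented by Rspo2 alone. Rspo2 gave 91.6, 86.0 and 51.0 on the positive arrays and 11.3, 3.35 and 7.29 on the negative arrays. The lowest positive value was above the highest negative value, and all negative values were dim. Rspo2 was at least 5.69-fold higher in positive cells (fitted log2 fold change 3.50, SE 0.56, adjusted p = 0.00831). It passed in 13 of 18 alternative settings. The call was lost without positive replicate 1 (adjusted p = 0.0741), without positive replicate 2 (0.0911), with no filter (0.105), when the spike-in batch entered as a block (at least 3.93-fold, 0.261) and in the higher batch alone (0.960). The difference was 1.44 with log2 of the value plus 32. A second Rspo2 probe set reached the filter level on no array. Rspo1, Rspo3 and Rspo4 stayed under the filter, with signals up to 12.9, 17.1 and 8.82.

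Neither of the R-spondin receptors Lgr4 and Lgr5 passed the threshold. Lgr4 gave 163, 131 and 236 on the positive arrays and 199, 354 and 287 on the negative arrays, with overlap. Its difference was -0.67 (SE 0.28, 95% interval -1.28 to -0.06, adjusted p = 0.407), and it was -0.20 within the higher spike-in batch. A further Lgr4 probe set had the opposite sign at 0.22. Lgr5, which is also a target of the beta-catenin branch, gave 18.3, 5.95 and 40.4 against 8.10, 1.73 and 11.9, a wide spread with a difference of 1.58 (95% interval -0.53 to 3.68).

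Secreted antagonists went both ways. Sfrp2, a Frizzled-related protein that binds Wnt ligands, gave 81.0, 52.4 and 91.7 on the positive arrays and 174, 207 and 186 on the negative arrays. No positive value reached the lowest negative value. Sfrp2 was lower in positive cells by 2.58-fold (log2 fold change -1.37, SE 0.27, 95% interval -1.96 to -0.78, adjusted p = 0.0311). The call was lost in 5 of 6 fits without 1 array, where leaving out positive replicate 1 gave an adjusted p of 0.0807, positive replicate 2 gave 0.172, and the negative replicates in turn gave 0.0779, 0.128 and 0.0867. It was also lost when the spike-in batch entered as a block (-1.04, adjusted p = 0.556), in the higher batch alone (0.813), with median centring (0.0564), with no filter (0.128) and with no trend (0.146), so Sfrp2 passed in 8 of 18 alternative settings. The 250 bases before its RefSeq start at chr3:83766071-83766320 (GRCm38.p6, plus strand) are shown because Sfrp2 was a gene past the threshold, and no base is in capitals because none of the motifs given further on was found.
Sfrp2: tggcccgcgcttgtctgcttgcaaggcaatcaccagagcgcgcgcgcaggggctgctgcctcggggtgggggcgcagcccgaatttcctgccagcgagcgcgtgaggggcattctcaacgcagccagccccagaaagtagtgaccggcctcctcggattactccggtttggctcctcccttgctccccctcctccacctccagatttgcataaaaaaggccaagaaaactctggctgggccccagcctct

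Sfrp1, a close relative of Sfrp2, gave 104, 95.2 and 100.3 on the positive arrays and 153, 134 and 136 on the negative arrays. The groups did not overlap, at a difference of -0.50 (SE 0.24, 95% interval -1.01 to 0.01, adjusted p = 0.477). The 4 tested Sfrp1 probe sets lay between -0.50 and 0.26, 3 below and 1 above 0. Dkk3, a divergent Dickkopf family member, gave 73.6, 159 and 58.6 against 45.3, 39.7 and 37.3. Its positive values all exceeded its negative values, and positive replicate 2 was more than 2-fold above the other positive arrays. The difference was 1.12 (SE 0.38, 95% interval 0.29 to 1.95, adjusted p = 0.288) and dropped to 0.69 without positive replicate 2 and 0.53 within the higher spike-in batch. A further Dkk3 probe set gave 0.21. Sfrp5, Frzb, Dkk1, Dkk2 and Wif1 stayed under the filter, with highest signals between 8.96 for Sfrp5 and 20.02 for Frzb.

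**Figure D4:**
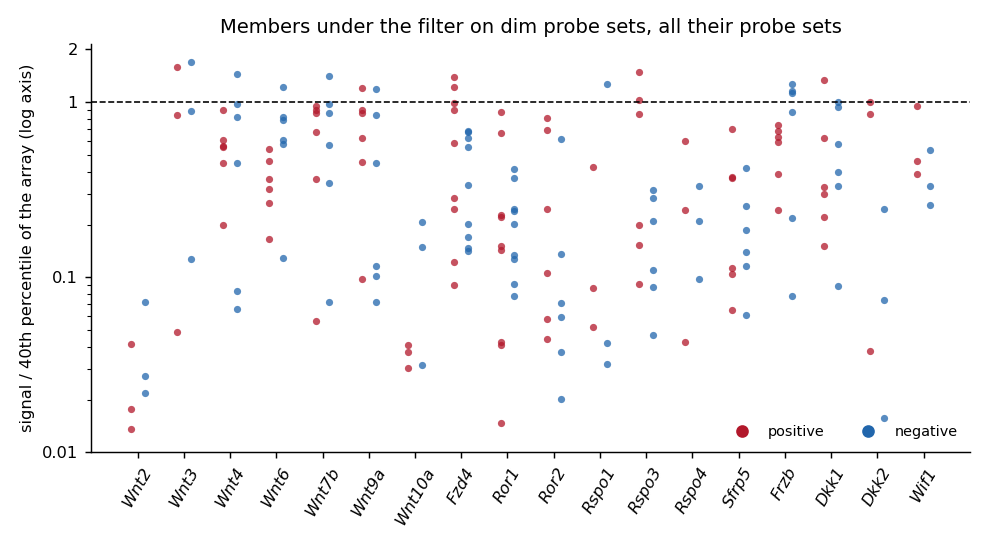
Signals of the 18 Wnt genes under the filter, all 31 of their probe sets, divided by the 40th percentile of the same array (y axis, log scale), in positive (red) and negative (blue) cells. The dashed line is the filter level, which 7 of these genes reached on no array, 8 on 1 array and 3 on 2 arrays.

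Of the intracellular and nuclear members, Tcf7l2 was lower in positive cells. Tcf7l2, a nuclear partner of beta-catenin that binds DNA at Wnt target genes, gave 1146, 1247 and 1207 on the positive arrays and 2635, 2839 and 2531 on the negative arrays. The values within each group were close together and the groups far apart. The fold change was -1.15 (SE 0.20, 95% interval -1.58 to -0.73, adjusted p = 0.0111), a 2.22-fold lower level. The further Tcf7l2 probe sets were lowest on positive replicate 3, at 174, 38.4 and 33.5 against 397, 218 and 108 on positive replicate 1. For the second of these, positive replicates 1 and 2 (218 and 225) lay within the negative range of 116 to 283. With this 1 low array included, all 4 Tcf7l2 probe sets had negative differences, between -1.38 and -0.68, and the groups did not overlap for 2. It was the 1 Wnt gene that passed when the spike-in batch entered as a block (-1.14, adjusted p = 0.0389), and it did not pass within the higher spike-in batch alone (adjusted p = 0.103). Tcf7l2 passed in 8 of 18 alternative settings, and was also lost with median centring (adjusted p = 0.160), no filter (0.0656) and no trend (0.0881). Without 1 array the fold change lay between -1.19 and -1.11 and the call was lost in 5 of 6 fits, where leaving out positive replicate 1 gave an adjusted p of 0.0806, positive replicate 2 gave 0.0671, and the negative replicates in turn gave 0.0590, 0.0712 and 0.0502. The mean of its probe sets gave -0.99 (adjusted p = 0.290).

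RefSeq lists 2 starts of Tcf7l2 in the table used, and the 250 bases before each are shown because Tcf7l2 passed the threshold, with capitals for a match to a Tcf and Lef motif. The first start follows chr19:55741560-55741809 and the second follows chr19:55895071-55895320 (GRCm38.p6, plus strand).
Tcf7l2, first start: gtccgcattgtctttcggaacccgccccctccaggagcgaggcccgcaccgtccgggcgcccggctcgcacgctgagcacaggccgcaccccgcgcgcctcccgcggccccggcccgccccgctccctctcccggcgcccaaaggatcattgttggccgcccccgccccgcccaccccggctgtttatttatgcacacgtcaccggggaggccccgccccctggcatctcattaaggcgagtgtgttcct
Tcf7l2, second start: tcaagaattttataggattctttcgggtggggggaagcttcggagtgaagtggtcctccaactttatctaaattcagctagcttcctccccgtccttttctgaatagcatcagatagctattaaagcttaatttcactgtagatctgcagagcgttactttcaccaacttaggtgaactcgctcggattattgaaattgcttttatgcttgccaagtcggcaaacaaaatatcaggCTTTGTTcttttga

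Motifs were searched on both strands. For Tcf and Lef proteins the first spelling was CTTTGAA. The next was written CTTTGAT, followed by the spelling CTTTGTA, and the last spelling searched was CTTTGTT. Homeodomain proteins were represented by TAATTA. For the Foxa proteins the motif was TGTTTAC, while for proneural proteins it was CAGATG. The second Tcf7l2 start had CTTTGTT on the plus strand, beginning 14 bases before the start. Promoter entries existed for 34 of the 48 genes, with 41 starts. Rspo2, which also passed the threshold, had no entry, so it was not searched and no sequence is shown. A Tcf and Lef match was found before 6 of these 41 starts (14.6%), against 14.8% of 32851 starts in the table. TAATTA was before 1 (2.44% against 4.84%), TGTTTAC before 0 (against 3.17%) and CAGATG before 2 (4.88% against 14.4%). No match overlapped another in the windows of these genes. A match is a string of letters, not evidence of binding.

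Tcf7l1, a relative of Tcf7l2 that mainly represses targets, gave 17.5, 18.2 and 8.09 on the positive arrays and 37.9, 23.7 and 33.0 on the negative arrays. All positive values lay below the negative ones, at a difference of -1.17 (SE 0.53, 95% interval -2.32 to -0.02, adjusted p = 0.454). Tcf7l1 differed by -1.93 within the higher spike-in batch, where the positive array was dim for it. Its second probe set gave -1.45, also without overlap. Lef1 gave 144, 108 and 173 against 180, 210 and 138, with overlap and a difference of -0.32 (SE 0.26, 95% interval -0.89 to 0.25, adjusted p = 0.677), and it was -0.0025 within the higher spike-in batch. Axin2, a feedback inhibitor that is widely used as a readout of beta-catenin activity, gave 139, 203 and 104 against 113, 113 and 166. The Axin2 groups overlapped throughout, at 0.16 (SE 0.29, 95% interval -0.48 to 0.79, adjusted p = 0.876), and the sign turned within the higher spike-in batch (-0.30). Both Axin2 probe sets were near the same value, at 0.16 and 0.20.

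**Figure D5:**
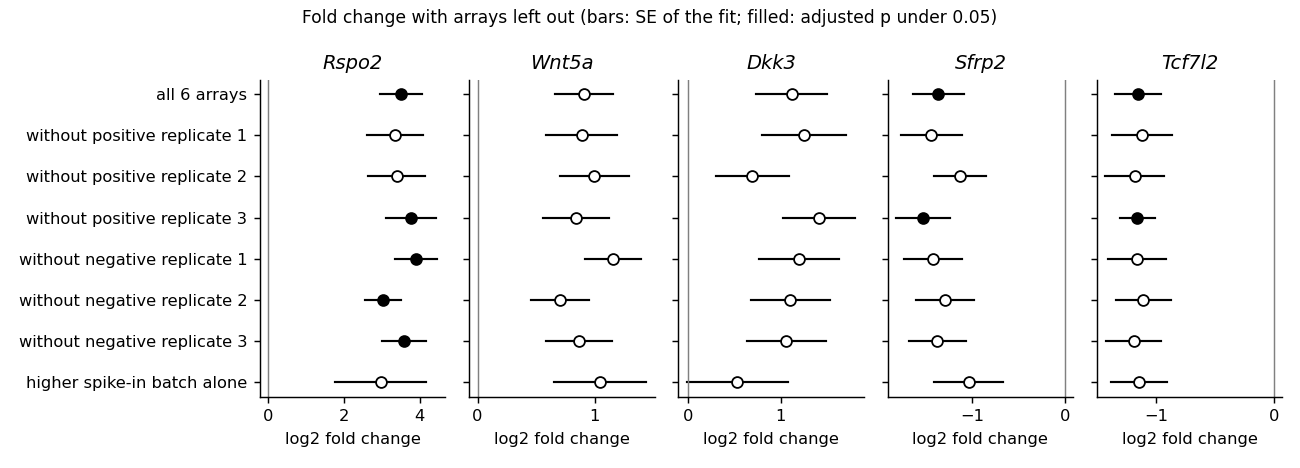
Log2 fold change (x axis, positive minus negative) of Rspo2, Wnt5a, Dkk3, Sfrp2 and Tcf7l2 with all 6 arrays, with each array left out, and within the higher spike-in batch, with bars for the SE of the fit. Filled points have an adjusted p under 0.05. The estimates of each gene stay on one side of 0, which was fixed in advance. The groups of these genes do not overlap, so leaving out arrays could not turn the sign.

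Further genes of the pathway were taken from a list of 63 that did not include the 48. Of these, 61 were on the array and 50 were tested, and limma called none, with 2 at an unadjusted p under 0.05 (4%, against 10.8% of all tested genes). The median was -0.04, with 23 at positive and 27 at negative values, and the groups did not overlap for 10 (20%, against 15.5%). The genes with an unadjusted p under 0.05 were Gpc4, a cell surface glypican that modulates Wnt ligands (0.74, SE 0.23, adjusted p = 0.236), and Draxin, a secreted guidance protein that antagonises Wnt signalling (0.60, SE 0.22, adjusted p = 0.331). Gpc4 gave 304, 249 and 202 against 164, 146 and 138, and Draxin gave 819, 709 and 537 against 448, 392 and 512. For neither gene did the groups overlap. None of 12 cytoplasmic transducers, 9 nuclear cofactors, 6 feedback genes and targets or 10 planar polarity genes had an unadjusted p under 0.05. Ctnnb1, which encodes beta-catenin, gave 2616, 2620 and 5340 on the positive arrays and 4793, 6040 and 4700 on the negative arrays, where the 2 arrays of the lower spike-in batch were low. Its difference was -0.63 (SE 0.30, adjusted p = 0.472).

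Markers of other cells differed between the groups, and their part in the Wnt differences was not tested. Those counted here as lower or higher are the ones past the threshold. Of all tested genes, 0.639% passed as lower and 0.423% as higher. In the positive cells 5 of 5 tested blood markers and 4 of 5 tested macrophage and microglia markers were lower, with summed signals of 314 to 628 against 7512 to 14929 and of 27.6 to 52.1 against 377 to 808. Of 8 markers of other ventral midbrain lineages 6 were lower (2669 to 4248 against 6599 to 6838), as were both diencephalic markers on the array, Six3 and Barhl2 (43.7 to 77.0 against 310 to 420), and 1 of 5 radial glia markers, which was Fabp7 (summed over the 5 markers, 2254 to 3838 against 4916 to 5717). The dopaminergic neuron list had 5 of 6 tested markers higher (3741 to 5320 against 1411 to 1794). The list for dopaminergic progenitors and floor plate had 1 of 5 tested markers higher, which was Lmx1a (summed over the 6 on the array, 783 to 982 against 592 to 730). None of the 4 tested dorsal neural tube markers, which include Wnt8b, the 2 tested isthmus and hindbrain markers, the 4 neuronal markers or the 5 tested mesenchyme and pericyte markers passed. All 10 endothelial markers stayed under the filter, with summed signals of 60.5 to 74.8 in positive and 28.8 to 72.4 in negative cells. Pitx3, a defining marker of dopaminergic neurons, also stayed under it, with a highest signal of 2.38.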

How the data were processed

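Total RNA of sorted cells was biotinylated and hybridized per the labels' protocols, with 1 array for each sample. The authors deposited 1 table of intensity values for 45101 probe sets on 6 arrays, and the submitters' processing notes name MAS5, R 2.14.2 and limma without giving the role of each. On each array the deposited intensity values average 100 after 2% trimming, so total RNA per cell is not measured. No detection calls entered the tests.

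The floor was 1, and tests used log2 of the floored signal. Of 45037 probe sets other than controls, 34945 had 1 symbol, 0 of the 100 Wnt probe sets changed symbol against the GRCm38 gene table, and 27738 passed the filter (above the 40th percentile of the array on at least 3 arrays). Where a gene had several tested probe sets, the one of highest mean log2 signal stood for it. The test was that of limma 3.58.1 under R 4.3.3 (lmFit, eBayes with trend, two-sided, 4 residual degrees of freedom, Benjamini-Hochberg over 12044 genes, threshold 0.05), which was tested on simulated data. A bound ("at least N-fold") divides the mean of the brighter group by that of the dim group after raising each dim array to its own 40th percentile. It carries no sampling error and is not the lower end of an interval. The number of arrays limits precision.

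Values were given for tested members past the threshold, with an unadjusted p under 0.05 or without overlap, and for Wnt1, Wnt5a, Wnt7b, Rspo2, Sfrp1, Sfrp2, Axin2, Lef1 and Tcf7l2. Further tested probe sets were given where they had the opposite sign or lay more than 1 log2 unit away, and some others were added. Probe sets under the filter did not come under this rule, and not all of them are given. The members, lists, markers and settings were chosen with earlier results of these data known. Alternatives were quantile normalization, median centring, no filter, a 60th percentile filter, log2 of the value plus 32, no trend, the mean of probe sets, unique probe sets alone (no _s_at, _x_at and _a_at names), each probe set, the replicate number or the spike-in batch entered as a block, the higher spike-in batch by itself (4 arrays), and leaving out each array. Figures used matplotlib 3.10.9 in Python 3.11.15. Promoter sequences are from RefSeq (GRCm38.p6), without the 50 bases after each start.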

Additional observations from a re-analysis of the deposited data

How the results depend on the processing

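The count of 3 Wnt genes past the threshold was 1 (Rspo2) with median centring, 1 (Tcf7l2) when the spike-in batch was a block, 0 with no filter (9 at an unadjusted p under 0.05 in limma) and 0 in the higher spike-in batch alone (5 at an unadjusted p under 0.05). It ranged from 0 to 3 without 1 array, being 0 without positive replicates 1 and 2, where 5 and 8 had an unadjusted p under 0.05. With no trend it was 2 (Rspo2 and Wnt1), and with the replicate block 3. Deviations of same-numbered arrays from their group means correlated at 0.14, -0.10 and 0.03. Deviations within a group of 3 arrays constrain each other, so these values cannot decide whether the numbers pair the arrays. The count of other pathway genes was 0 to 1 without 1 array, the 1 being Ctnnb1 in the fit that leaves out positive replicate 3 and in which each batch holds 1 group. The 128 genes past the threshold overall became 19 with no filter, 42 with no trend, 34 with the batch block, 38 in the higher batch alone, and 58 to 419 without 1 array. The sign turned for Axin2 (-0.30 with the batch block, -0.30 in the higher batch alone and -0.10 to 0.38 without 1 array, below 0 without positive replicate 2) and for Lrp6 (0.89 with the mean of probe sets, where the second probe set enters). Otherwise the cause was not tested. Of 283 values of the 16 described genes under alternatives, 253 kept direction and side of the threshold, 25 lost the call, 1 gained it (Wnt1) and 4 changed sign. For most of these genes, keeping the side meant staying without a call. Genes without overlap could not change sign when arrays were left out. Of the genes with a call, Rspo2, Sfrp2 and Tcf7l2 kept it in 13, 8 and 8 of 18 settings. Calls lost without 1 array come from fits with fewer arrays. The fits of the spike-in batch rest on positive replicate 3, whose spread is taken from the others. Signals near the filter level limit what can be said of the ligands Wnt1, Wnt3a and Wnt8b.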

Other observations

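Some Wnt genes are direct neighbours among protein-coding genes of the GRCm38 annotation, a property not used to choose them. The neighbours among the ligands were Wnt6 with Wnt10a, Wnt3a with Wnt9a, Wnt3 with Wnt9b and Wnt1 with Wnt10b. Of these 8 genes, Wnt1 and Wnt3a were tested, both with values close to the filter level. Their neighbours Wnt10b and Wnt9a were under the filter, with highest signals of 5.91 and 17.6. Both members of the other pairs were also under it, so the arrays give no comparison within a pair.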
